A study of Mus musculus with 11 samples.

Results

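The miR-30 family was followed across 11 mouse small RNA libraries. Its 7 members were chosen by name, from the mature miR-30 strands in the count table: mmu-miR-30a-5p, mmu-miR-30b-5p, mmu-miR-30c-5p, mmu-miR-30d-5p, mmu-miR-30e-5p, mmu-miR-30a-3p and mmu-miR-30e-3p, written below without the species prefix. They are 7 of 2304 features counted, 1592 of them mature miRNAs and 712 endogenous siRNAs. The other miR-30 strands in the table (miR-30b-3p, miR-30c-1-3p, miR-30c-2-3p, miR-30d-3p and miR-30f), and miR-384-5p, are described once as a check. All mice were adults on the C57BL/6 background. 2PN (pronuclear) embryos were made by injecting sperm into oocytes, with Dicer cKO sperm, Drosha cKO sperm or wild-type (WT) sperm, and each kind gave 1 library. Superovulated WT females gave 1 library of oviduct oocytes. Cauda epididymal sperm gave 2 libraries from Dicer cKO males, 3 from Drosha cKO males and 2 from WT males. The cKO males carried germ line conditional knockouts made by Cre and loxP. The labels name neither the Cre driver nor the number of animals behind a library, and in the 2PN embryos only the sperm was mutant.

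A miRNA is cut from a hairpin. The nuclear enzyme Drosha releases the hairpin from its primary transcript, Dicer cuts off the loop in the cytoplasm, and 1 strand of the duplex usually stays in an Argonaute protein, where its seed pairs with target messenger RNAs. The 5p strands of the miR-30 family share a seed and are the guide strands in most tissues. The family is widely expressed, with high levels in epithelia, heart and muscle.

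The mature sequences are shown because they define which members can act alike and which can be mistaken for each other in counting. They came from RefSeq on GRCm38.p6, in which 5 of the 7 members were matched by name, and the seed (bases 2 to 8 from the 5′ end) is in capitals.
miR-30a-5p: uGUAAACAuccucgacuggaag
miR-30c-5p: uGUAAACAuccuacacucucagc
miR-30e-5p: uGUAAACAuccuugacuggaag
miR-30a-3p: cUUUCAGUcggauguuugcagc
miR-30e-3p: cUUUCAGUcggauguuuacagc
The 3 printed 5p strands shared 1 seed, which the table gave to 4 of 1679 mature names, the fourth being miR-384-5p. The 2 printed 3p strands shared another seed, held by no other of the 1679 names. Both strands of miR-30b and miR-30d were absent from those names, so their seeds were not compared, and neither seed is shown to be limited to the names given. Counting positions from 1 at the 5′ end, miR-30a-5p and miR-30e-5p differed by the substitution C13U alone, and miR-30a-3p and miR-30e-3p by G18A alone. miR-30a-5p and miR-30c-5p were identical over the first 12 bases and differed at 5 of the 22 compared. How the authors treated reads that fit several miRNAs is not stated in the labels, so counts of the miR-30a and miR-30e strands are uncertain to the extent that such reads were shared or split.

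The members come from 3 pairs of neighbouring hairpins. Mir30a, at chr1:23272269-23272339, and Mir30c-2, at chr1:23291701-23291784, lay 19361 bases apart and within no annotated gene. Mir30c-1, at chr4:120769534-120769622, and Mir30e, at chr4:120772606-120772697, were 2983 bases apart inside Nfyc, which encodes a subunit of the transcription factor NF-Y. Mir30b and Mir30d lay 3697 bases apart on chromosome 15, at 68337415 to 68337510 and 68341208 to 68341289, outside annotated genes. The hairpins of miR-30a and miR-30c are printed 5′ to 3′ with the mature strands in capitals, Mir30a and Mir30c-2 from the plus strand and Mir30c-1 from the minus strand.
Mir30a: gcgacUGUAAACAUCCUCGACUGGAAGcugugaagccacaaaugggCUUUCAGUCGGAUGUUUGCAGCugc
Mir30c-2: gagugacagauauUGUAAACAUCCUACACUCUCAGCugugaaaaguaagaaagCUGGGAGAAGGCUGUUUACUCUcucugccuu
Mir30c-1: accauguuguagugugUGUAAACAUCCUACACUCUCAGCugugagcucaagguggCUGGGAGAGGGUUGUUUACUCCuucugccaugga
Both miR-30c hairpins held the same 5p strand, so a miR-30c-5p read cannot be assigned to chromosome 1 or chromosome 4. Their 3p strands differed by A9G, C12U and U22C, with Mir30c-2 given first.

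Levels are given as a share of listed reads, meaning the reads counted on any of the 2304 features. Listed reads numbered 2951 to 8967 in the oocyte and 2PN libraries and 12003 to 278890 in sperm, with Drosha cKO replicates 2 and 3 the shallowest sperm libraries. Male germ cell markers, 7 miRNAs of the miR-34 family and the X chromosome, held 0.824% and 0.844% of listed reads in the Dicer cKO sperm libraries and 1.41% to 2.46% in those of the Drosha cKO, against 18.1% and 16.3% in WT sperm. For 6 epithelial miRNAs of the miR-200 family and miR-205 the shares were 13.6% and 16.3% with Dicer cKO and 11.4% to 14.3% with Drosha cKO, against 1.65% and 1.83% in WT sperm. The 5 blood miRNAs in the table reached 4.98% and 4.80% with Dicer cKO and 2.13% to 2.44% with Drosha cKO, against 0.511% and 0.441% in WT sperm. All 7 germ cell markers were called lower and all 6 epithelial markers higher in both kinds of cKO sperm by the edgeR test described with the members. Of the 5 blood markers 4 were called higher in both. The exception was miR-142-3p (log2 change 1.13 with Dicer cKO and −0.79 with Drosha cKO, neither called). Of 5 stroma and smooth muscle markers 2 were called higher with Dicer cKO and 0 with Drosha cKO, and 0 were called lower in either. The share of these shifts in the miR-30 results was not tested, and fewer cells of a type and less RNA per cell cannot be told apart. These small RNA libraries hold no check of the Dicer or Drosha transcript.

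In sperm, the family as a whole held a slightly lower share of listed reads in the Dicer cKO and a lower share in the Drosha cKO than in WT. The 7 members together held 7.04% and 7.62% of listed reads in Dicer cKO sperm. They held 4.41%, 4.22% and 4.37% in Drosha cKO sperm, against 7.67% and 8.75% in WT sperm. The WT values were the highest and the Drosha cKO values the lowest, with no overlap between any 2 groups, although the nearest Dicer cKO and WT libraries differed by little. On the log2 scale of mean shares, Dicer cKO stood at −0.16 against WT (SD within groups 0.11) and Drosha cKO at −0.92 (SD 0.08), which is 1.89-fold lower. Dicer cKO was 1.69-fold above Drosha cKO (log2 ratio 0.76, SD 0.05). TMM factors, the scaling used for the tests, differed between the WT libraries, at 0.899 and 0.497. They were 1.05 and 1.06 with Dicer cKO and 1.19 to 1.30 with Drosha cKO. With these factors the 3 log2 ratios were −0.91, −1.93 and 1.02. In the authors' deposited RPM, which divides each library by 1 larger total and not by its listed reads, they were −0.31, −2.23 and 1.93, and the Dicer cKO libraries, at 3116 and 5342 RPM, lay between the WT libraries, at 1653 and 8798 RPM. The let-7 family, another set of miRNAs abundant in differentiated tissue, went the other way in summed share in these libraries. It held 8.93% and 8.52% of listed reads with Dicer cKO and 10.8%, 17.6% and 12.8% with Drosha cKO, against 3.75% and 3.40% in WT sperm. Its strands did not all rise alike. By the edgeR test let-7c-5p was called higher (log2 change 1.94 with Dicer cKO and 2.30 with Drosha cKO), while let-7a-5p was not called (−0.36 and 0.05).

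**Figure D1:**
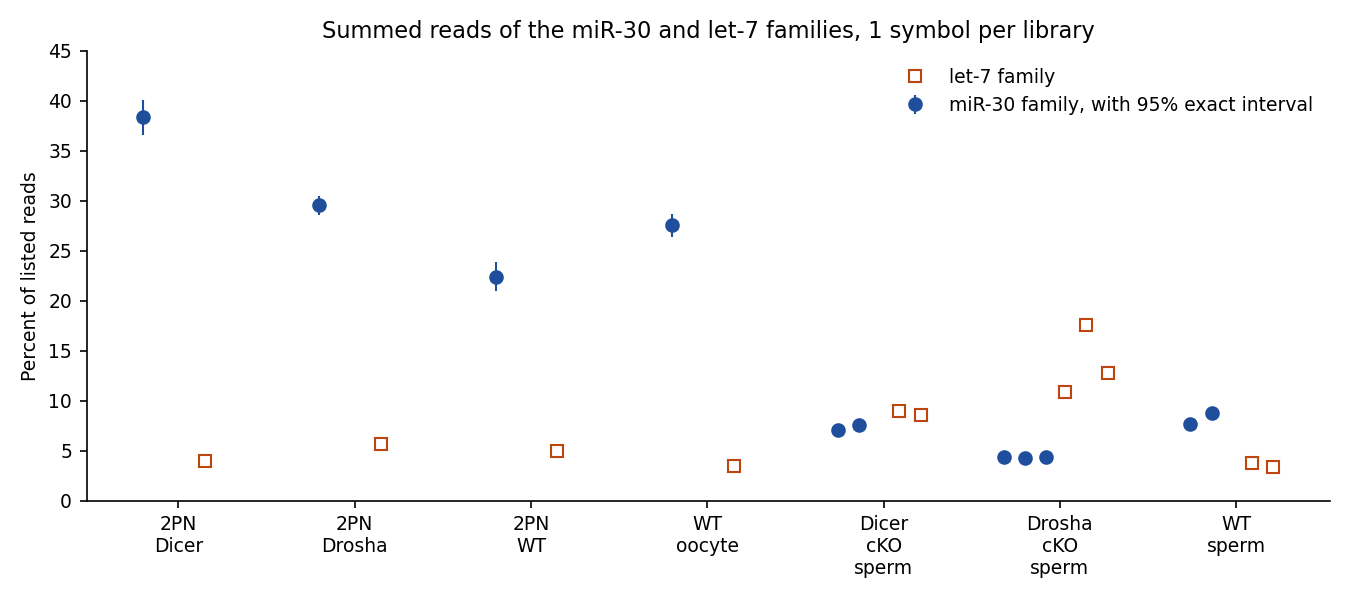
Percent of listed reads (y axis) held by the 7 miR-30 members (filled circles, bars are 95% exact intervals for counting error) and by let-7 (open squares) in each library, grouped along the x axis by kind of sample. The oocyte and 2PN libraries hold 22.4% to 38.3% miR-30, and Drosha cKO sperm, at 4.22% to 4.41%, lies below Dicer cKO and WT sperm.

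The comparison of Dicer cKO with WT sperm asked which members differed in level between these libraries, which does not by itself show dependence on Dicer. It was tested with edgeR's quasi-likelihood test on counts, with TMM scaling, all 7 sperm libraries in 1 fit and Benjamini-Hochberg adjustment over the 335 features that passed the expression filter, which all 7 members did. The members did not move together. miR-30b-5p, miR-30c-5p and miR-30e-3p fell, while the other 4 did not pass the threshold. The 3 calls of 7 members compare with 47.2% of all features called in this comparison and with 31.0% called lower, so the family's rate was near the background. The members' median log2 change was −0.64, beside 0.03 over all tested features.

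miR-30b-5p, the most abundant member in WT sperm, held 1.82% and 2.51% of listed reads in Dicer cKO sperm, against 2.73% and 4.69% in WT sperm. Both Dicer cKO libraries were below both WT libraries (log2 change −1.60, SE 0.53, edgeR adjusted p = 0.0190). miR-30c-5p held 0.919% and 1.22% in Dicer cKO sperm, against 1.25% and 1.84% in WT sperm. The groups came close without overlapping (log2 change −1.33, SE 0.51, edgeR adjusted p = 0.0403). miR-30e-3p, the rarer strand of its hairpin in sperm, had 10 and 20 reads in Dicer cKO sperm, against 21 and 169 reads in WT sperm, or 0.00813% and 0.0185% against 0.0286% and 0.0606%. It showed the largest change of the 7 on the lowest counts (log2 change −2.62, SE 0.83, edgeR adjusted p = 0.0161). Among 19 alternative analyses the call was lost in 7 for miR-30b-5p, in 13 for miR-30c-5p and in 8 for miR-30e-3p, and none of these 3 log2 changes turned positive. Without Dicer cKO replicate 1 none of the 7 members was called, and without WT replicate 2 only miR-30b-5p was. Without WT replicate 1 the log2 changes were −2.22 for miR-30b-5p and −3.30 for miR-30e-3p, and that of miR-30e-3p was −3.29 without Dicer cKO replicate 2, against −1.87 when WT replicate 2 was left out.

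miR-30a-5p was the only member with a higher share in both Dicer cKO libraries than in both WT libraries. It held 1.86% and 1.83% of listed reads in Dicer cKO sperm, against 0.934% and 0.677% in WT sperm. Its edgeR log2 change was 0.55 (SE 0.45, edgeR adjusted p = 0.341), which did not pass. With library totals alone, a scaling that lifts the median of all features to 0.62, miR-30a-5p was the only member called, and as higher. It was also called higher with TMM when the Dicer cKO and WT libraries alone were fitted (log2 change 0.96, SE 0.30, edgeR adjusted p = 0.0268), and not in the other 17 alternatives. miR-30d-5p held 2.20% and 1.75% in Dicer cKO sperm, against 2.46% and 1.25% in WT sperm, the Dicer cKO values lying between the WT values. Its log2 change was −0.49 (SE 0.45), with a sign that depended on the scaling. miR-30e-5p held 0.165% and 0.214%, against 0.206% and 0.164% in WT sperm, and the groups overlapped almost wholly. Its log2 change was −0.64 (SE 0.57), also with a sign that depended on the scaling. For miR-30a-3p, 82 and 74 reads in Dicer cKO sperm, against 40 and 188 reads in WT sperm, came to 0.0667% and 0.0684% against 0.0545% and 0.0674% (log2 change −0.62, SE 0.64). The 95% intervals of these log2 changes reached from −0.41 to 1.50 for miR-30a-5p, from −1.43 to 0.46 for miR-30d-5p, from −1.84 to 0.56 for miR-30e-5p and from −1.99 to 0.74 for miR-30a-3p, so a change of 2-fold in at least 1 direction lies within each.

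**Figure D2:**
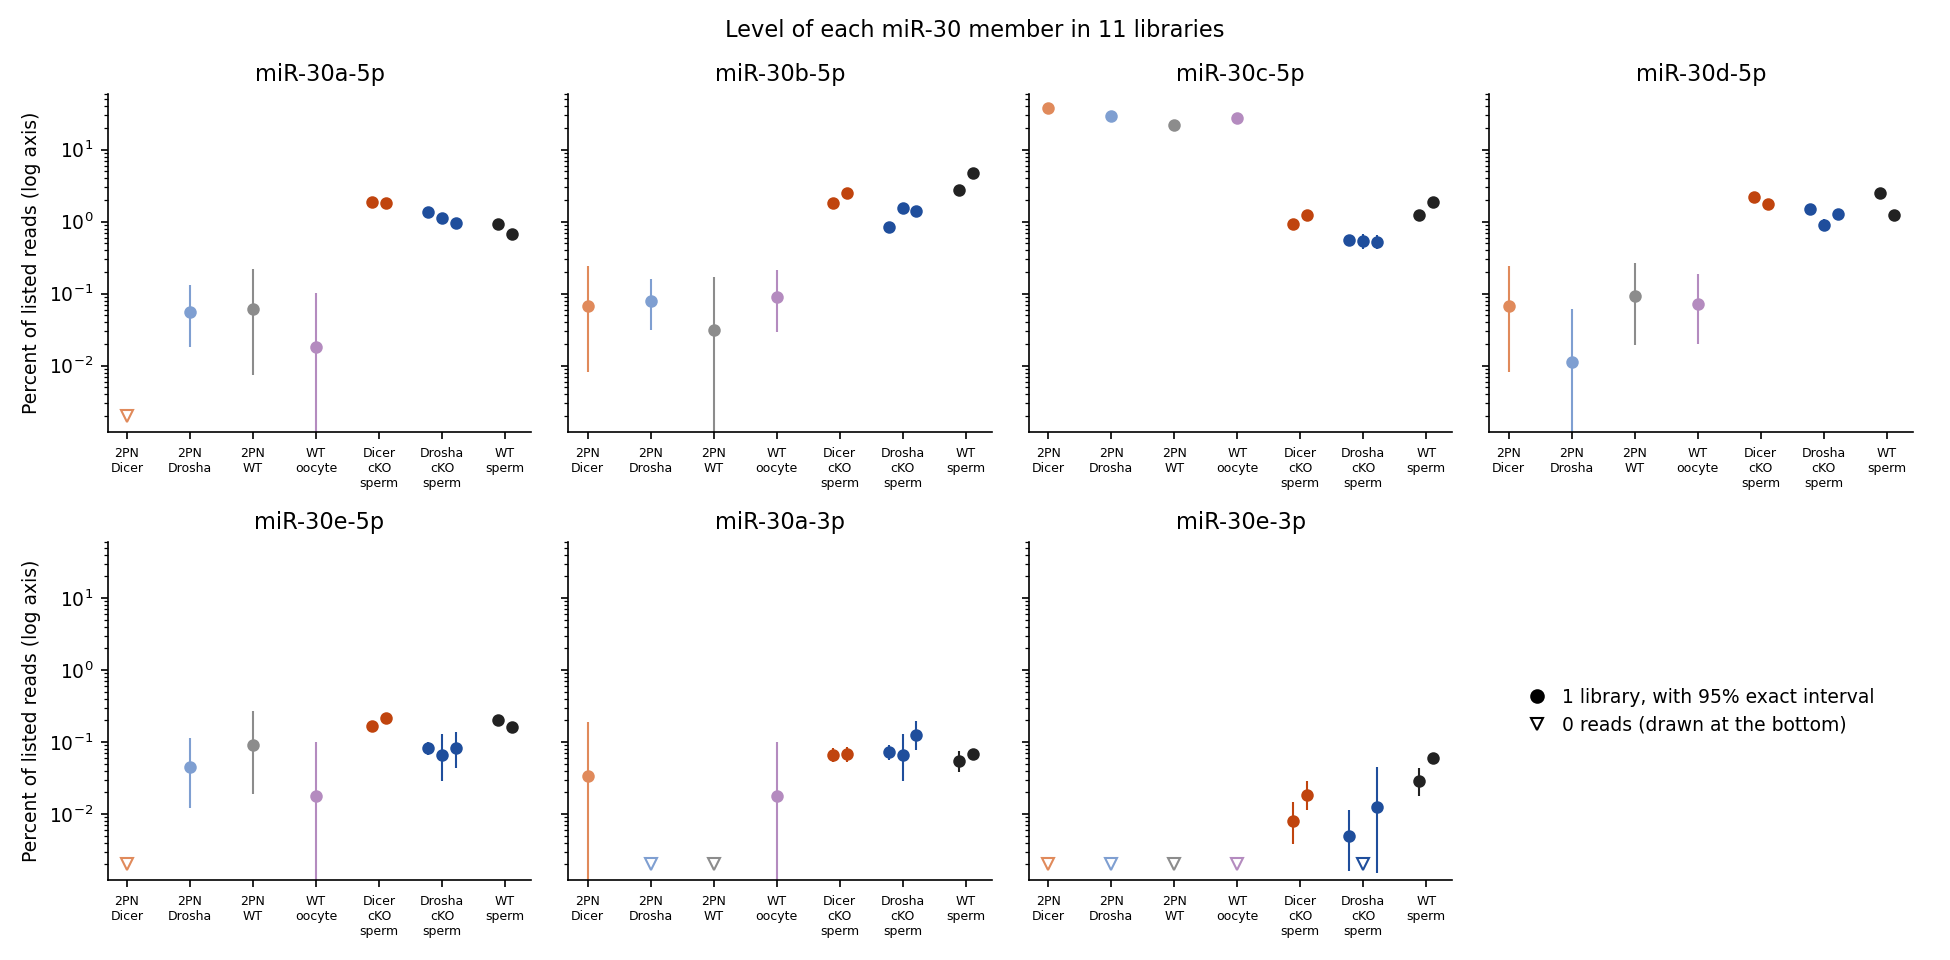
Percent of listed reads (log axis) of each member in each library, by kind of sample, with 95% exact intervals for counting error. Open triangles mark 0 reads and are drawn at the bottom of the panel. miR-30c-5p is above 22% in the oocyte and 2PN libraries and below 2% in sperm, while the other 6 members are below 0.1% in every oocyte and 2PN library.

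The same question was asked of Drosha cKO sperm, which was compared with WT sperm in the same fit. In Drosha cKO sperm the 5p strands other than miR-30a-5p fell, and miR-30e-3p fell with them. The edgeR test called 5 of 7 members, all lower, beside 55.2% of all features called and 33.1% called lower. The members' median log2 change was −2.17, beside 0.05 over all tested features. These libraries were set against the same WT libraries as the Dicer cKO, so the Dicer and Drosha comparisons are not independent.

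miR-30b-5p held 0.846%, 1.54% and 1.40% of listed reads in Drosha cKO sperm, against 2.73% and 4.69% in WT sperm. All 3 Drosha cKO libraries were below both WT libraries (log2 change −2.66, SE 0.47, edgeR adjusted p = 0.00034). miR-30c-5p held 0.551%, 0.533% and 0.521%, against 1.25% and 1.84% in WT sperm. The Drosha cKO values lay close together and below the WT values (log2 change −2.59, SE 0.46, edgeR adjusted p = 0.00034). miR-30d-5p, the chromosome 15 neighbour of miR-30b-5p, held 1.50%, 0.908% and 1.28%, against 2.46% and 1.25%. Its groups overlapped in shares of listed reads, while the edgeR log2 change was −1.42 (SE 0.40, adjusted p = 0.00779); this call was lost in 5 of 19 alternatives, including library totals alone.

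miR-30e-5p had 83, 8 and 13 reads in Drosha cKO sperm, against 151 and 457 reads in WT sperm. As shares these were 0.0822%, 0.0667% and 0.0817%, below the WT shares of 0.206% and 0.164% (log2 change −2.17, SE 0.53, edgeR adjusted p = 0.0033). miR-30e-3p, from the same hairpin, had 5, 0 and 2 reads, against 21 and 169 reads in WT sperm. The library with 0 reads allows a share of up to 0.0250%, close to the WT value of 0.0286%, so depth limits this member (log2 change −4.03, SE 0.90, edgeR adjusted p = 0.00171).

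miR-30a-5p held 1.35%, 1.11% and 0.948% of listed reads in Drosha cKO sperm, against 0.934% and 0.677% in WT sperm. The groups did not overlap and the Drosha cKO shares were higher, while TMM scaling gave a log2 change of −0.40 (SE 0.41, edgeR adjusted p = 0.417) and library totals alone gave 0.50. miR-30a-3p had 73, 8 and 20 reads, against 40 and 188 reads in WT sperm, with overlapping shares (log2 change −0.51, SE 0.60, edgeR adjusted p = 0.489; 0.51 with library totals alone). In shares of listed reads 5 of 7 members did not overlap between Drosha cKO and WT sperm, 1 higher and 4 lower, beside 72.2% of all features (42.1% higher and 30.1% lower). The same count for Dicer cKO and WT sperm was 4, with 1 higher and 3 lower, beside 81.2% of all features (46.3% higher and 34.9% lower). Leaving out any 1 of the sperm libraries kept the same 5 members called lower in Drosha cKO sperm, while the sizes of the changes moved. Without WT replicate 1 the log2 change was −3.74 for miR-30b-5p, −3.57 for miR-30c-5p, −2.84 for miR-30e-5p and −5.06 for miR-30e-3p. Without WT replicate 2 it was −2.01 for miR-30d-5p and −3.28 for miR-30e-3p. Without Dicer cKO replicate 1, which enters only through the shared fit, it was −2.07 for miR-30d-5p and −2.77 for miR-30e-5p, and without Dicer cKO replicate 2 it was −2.04 for miR-30d-5p.

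**Figure D3:**
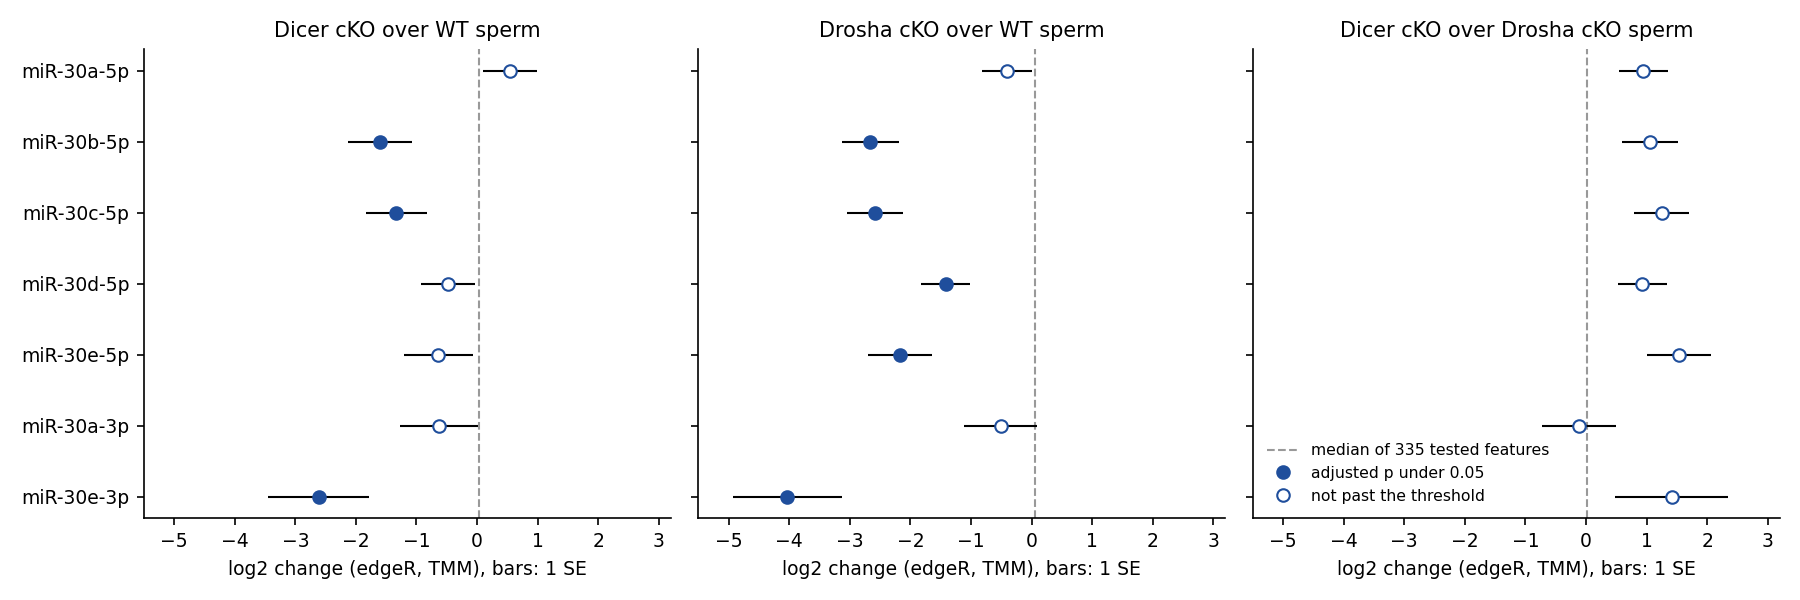
edgeR log2 change (x axis, TMM scaling, bars are 1 SE) of each member in the 3 sperm comparisons, with the median over 335 tested features as a dashed line. Filled circles passed an adjusted p of 0.05. In Drosha cKO over WT sperm, 5 members lie between −4.03 and −1.42, and miR-30a-5p and miR-30a-3p lie at −0.40 and −0.51.

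Dicer cKO sperm was also compared with Drosha cKO sperm directly. miR-30a-5p, miR-30b-5p, miR-30c-5p, miR-30d-5p and miR-30e-5p each had higher shares in both Dicer cKO libraries than in all 3 Drosha cKO libraries, as 15.2% of all features did. No member passed, and neither did any of the 335 features (0.0% called by edgeR). At an unadjusted p under 0.05 the edgeR test took 5 members, all higher in Dicer cKO sperm, beside 19.4% of all features in either direction and 6.87% higher. DESeq2 called 18 features, among them miR-30e-5p. The log2 changes of these 5 members ran from 0.93 for miR-30d-5p to 1.53 for miR-30e-5p, with a median over the 7 members of 1.06 beside 0.01 over all features. miR-30e-5p held 0.165% and 0.214% of listed reads in Dicer cKO sperm, against 0.0822%, 0.0667% and 0.0817% in Drosha cKO sperm (edgeR log2 change 1.53, SE 0.53, adjusted p = 0.158). miR-30c-5p followed with 0.919% and 1.22%, against 0.551%, 0.533% and 0.521% (log2 change 1.25, SE 0.45, edgeR adjusted p = 0.173). Without WT replicate 1, which enters this contrast only through the shared scaling, filter and spread, all 5 were called, and without WT replicate 2 the calls were miR-30b-5p and miR-30c-5p. miR-30a-3p (log2 change −0.11, SE 0.61) and miR-30e-3p (1.41, SE 0.94) overlapped between the groups.

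The make-up of the family, each member's share of the reads of the 7, needs no scaling between libraries, but its parts sum to 100%, so a larger part of 1 member makes others smaller. miR-30a-5p made up a larger part of the family in every cKO library than in either WT library, and miR-30c-5p a smaller one. The part of miR-30a-5p was 25.2% ± 1.68 (SD, n = 2) of family reads with Dicer cKO and 26.2% ± 4.45 (n = 3) with Drosha cKO, against 9.95% ± 3.14 (n = 2) in WT sperm. That of miR-30c-5p was 14.5% ± 2.10 with Dicer cKO and 12.4% ± 0.362 with Drosha cKO, against 18.7% ± 3.33 in WT sperm. miR-30b-5p made up 29.4% ± 5.07 and 29.3% ± 8.99 in the 2 kinds of cKO sperm, against 44.6% ± 12.7 in WT sperm, where the 2 libraries were far apart at 35.7% and 53.6%. miR-30d-5p varied as much among replicates as between groups, with 27.1% ± 5.87 in Dicer cKO, 28.3% ± 6.33 in Drosha cKO and 23.2% ± 12.5 in WT sperm. Over 21 exact permutation tests (two-sided), the smallest p that 2 libraries against 2 can give is 0.333 and that 2 against 3 can give is 0.2, so none could pass 0.05, and the smallest adjusted p was 0.525.

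**Figure D4:**
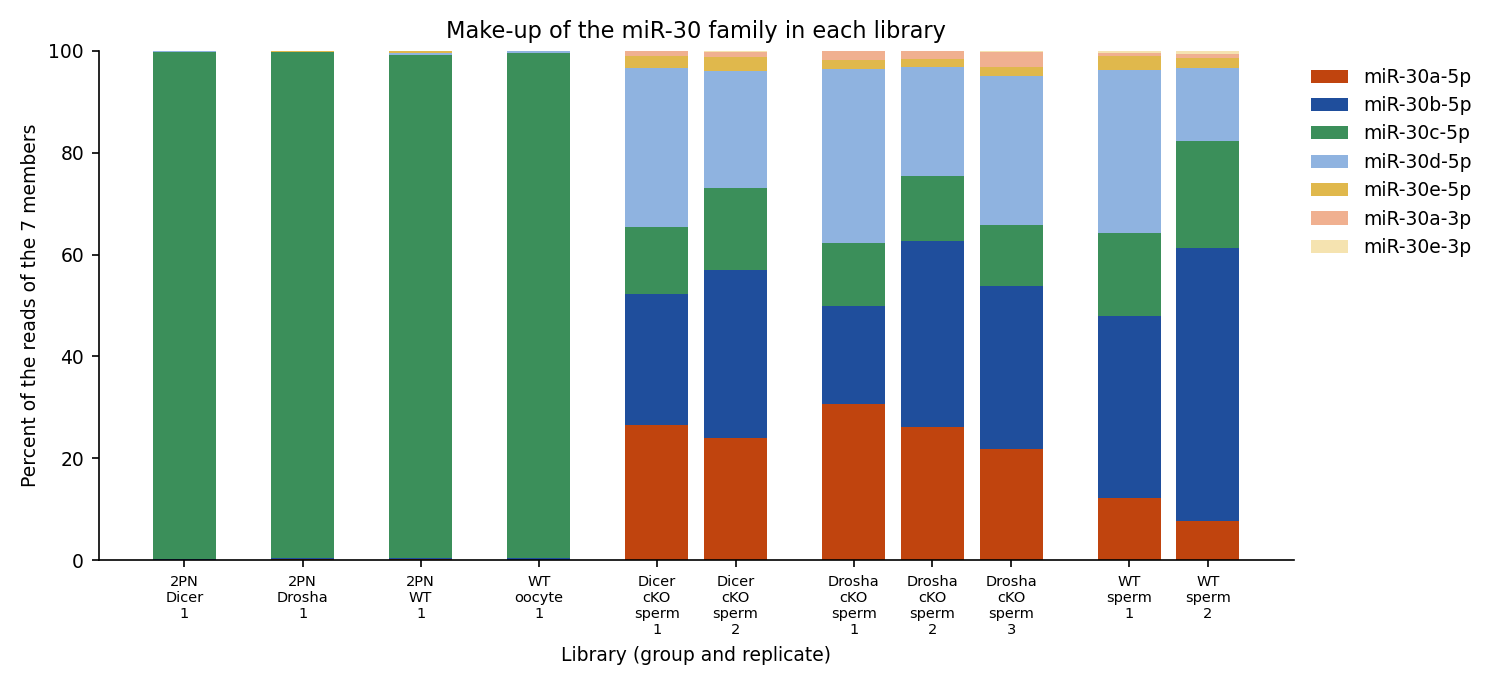
Each member's percent of the reads of the 7 members (y axis, stacked to 100) in each library (x axis, group and replicate). miR-30c-5p fills 98.8% to 99.6% of the oocyte and 2PN bars, and miR-30a-5p fills 21.7% to 30.6% of the cKO sperm bars but 7.73% and 12.2% of the WT sperm bars.

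The parts of miR-30a-5p and miR-30c-5p can also be written as a ratio of the strands from neighbouring hairpins on chromosome 1. It restates the make-up of these members and was chosen after its values were seen, so it is a description with no test. There were 2.03 and 1.50 reads of miR-30a-5p for each read of miR-30c-5p in Dicer cKO sperm. The ratio was 2.45, 2.08 and 1.82 in Drosha cKO sperm, against 0.745 and 0.367 in WT sperm. It was above 1 in all 5 cKO libraries and below 1 in both WT libraries. On the log2 scale the Dicer cKO mean was 1.74 above that of WT and the Drosha cKO mean 2.01 above it, which is 3.34-fold and 4.02-fold. Part of the miR-30c-5p reads may come from chromosome 4, so this is a ratio of strands and not of hairpins. The chromosome 15 neighbours gave no such separation. There were 0.825 and 1.43 reads of miR-30b-5p per read of miR-30d-5p with Dicer cKO and 0.564, 1.70 and 1.10 with Drosha cKO, against 1.11 and 3.74 in WT sperm, and the groups overlapped.

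For 2 hairpins both strands are among the members, and their strand use is given side by side with no test of the difference. From Mir30a the 3p strand gave 3.46% and 3.60% of the reads in Dicer cKO sperm. It gave 5.08%, 5.67% and 11.7% in Drosha cKO sperm, against 5.52% and 9.06% in WT sperm. The Dicer cKO libraries were the lowest of the 7, with 95% exact intervals of 2.76 to 4.27 and 2.84 to 4.50. These overlapped the intervals of WT replicate 1 (3.97 to 7.44) and of Drosha cKO replicates 1 (4.01 to 6.35) and 2 (2.48 to 10.9). The intervals of WT replicate 2 (7.86 to 10.4) and Drosha cKO replicate 3 (7.29 to 17.5) lay above them. From Mir30e the 3p strand gave 4.69% and 7.97% with Dicer cKO and 5.68%, 0% and 13.3% with Drosha cKO, against 12.2% and 27.0% in WT sperm. WT replicate 2 stood highest, with an interval of 23.6 to 30.7, and the Drosha cKO intervals were wide, since they rest on 88, 8 and 15 reads. The strands from the other side of the remaining hairpins were rare, with 0 to 10 reads each per library for miR-30b-3p, miR-30c-1-3p, miR-30c-2-3p and miR-30d-3p. Over all 11 libraries together miR-30f had 1 read and miR-384-5p had 4, and none of these 6 passed the expression filter.

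**Figure D5:**
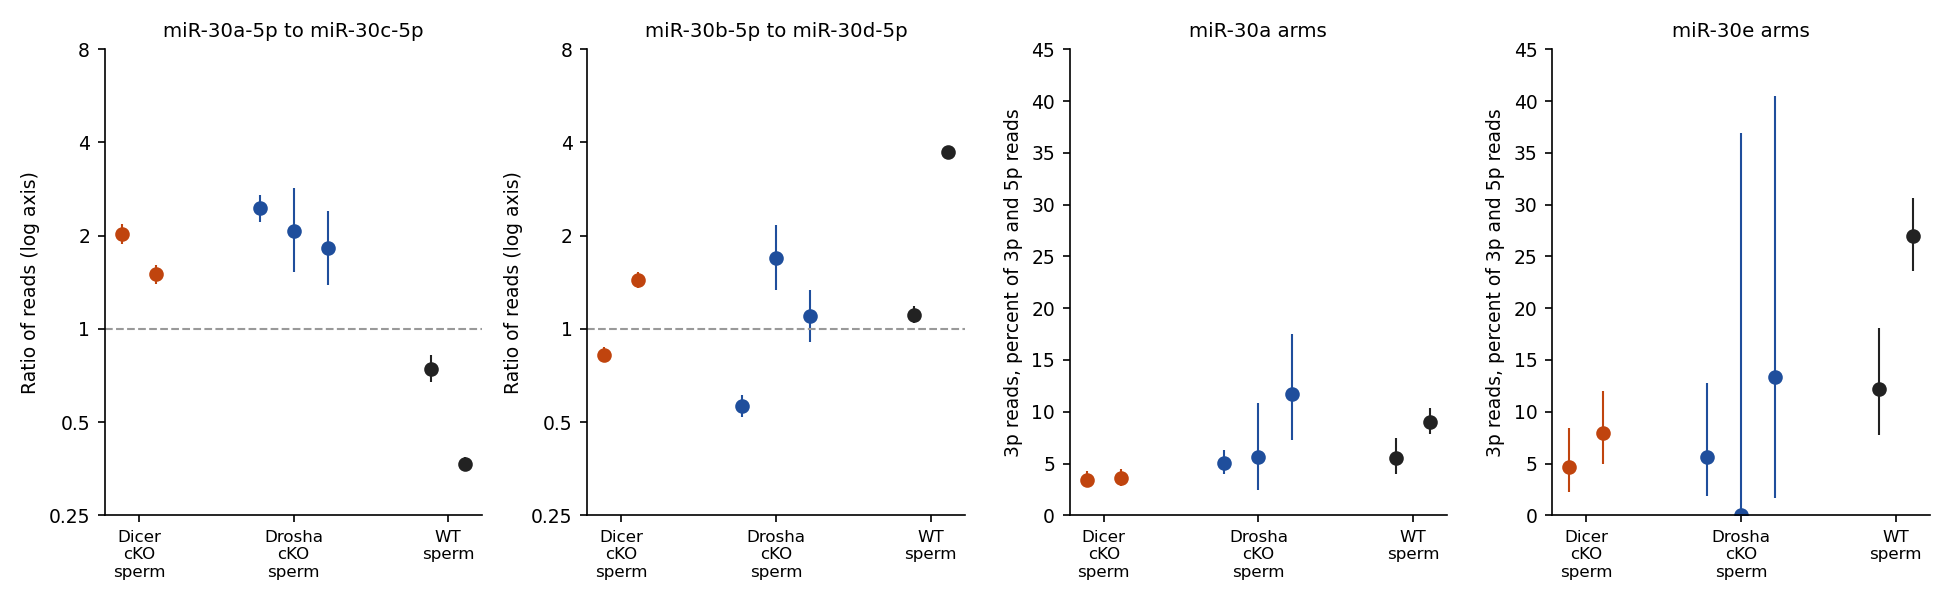
Ratios of reads in sperm libraries for miR-30a-5p to miR-30c-5p and miR-30b-5p to miR-30d-5p (log axes, dashed line at 1), and the 3p percent of the reads of Mir30a and Mir30e. Points are libraries and bars are 95% exact intervals. The first ratio is 1.50 to 2.45 in cKO sperm and 0.367 to 0.745 in WT sperm.

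In oocytes and 2PN embryos 1 strand stood for nearly the whole family. miR-30c-5p was the most abundant of all features in each of the 4 libraries. It held 38.2% of listed reads in 2PN embryos from Dicer cKO sperm, 29.4% in those from Drosha cKO sperm, 22.1% in those from WT sperm and 27.3% in the WT oocyte library. The other 6 members together had 5, 17, 9 and 12 reads there, 0.169% to 0.278% of listed reads. No other member had more than 7 reads in any of these libraries, and miR-30e-3p had 0 reads in all 4, which allows 0.0335% to 0.102% of listed reads. The series' design text speaks of duplicates, while the labels give 1 library for the oocyte and for each kind of 2PN embryo, and whether a library pools 2 preparations is not stated. The groups were taken as 1 library each, so there is no replicate check and no test, and the intervals given cover counting error only. miR-183-5p, at 17.9% to 27.8%, was the next feature in each of the 4.

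Against WT sperm, the oocyte library had more miR-30c-5p and lower shares of every other member, within counting error for miR-30a-3p and miR-30e-3p. miR-30c-5p held 27.3% of listed reads in the oocyte, against a mean of 1.55% in WT sperm, a ratio of 17.6 (15.9 from pooled WT reads, 95% exact interval 15.0 to 16.8). This ratio rests on the scaling: in the authors' RPM miR-30c-5p stood at 1335 in the oocyte, against 270.3 and 1853 in the WT sperm libraries, which lie on either side of it (ratio of means 1.26). Listed reads were 0.196% to 0.737% of the authors' divisor in the oocyte and 2PN libraries and 2.11% to 10.1% in sperm. The other 6 members were 30.7-fold lower together (31.4-fold from pooled reads, interval 17.9 to 60.7), on 12 oocyte reads. In the authors' RPM they stood at 10.6 in the oocyte, against 1383 and 6945 in WT sperm, which is 392-fold lower on means, so the direction held and the size did not. Among the abundant sperm members, miR-30b-5p had 5 oocyte reads and was 41.0-fold lower in share (599.6-fold in RPM), and miR-30d-5p had 4 and was 25.6-fold lower in share (253-fold in RPM). miR-30a-5p had 1 oocyte read, a pooled ratio of 0.0248 with an interval of 0.000627 to 0.138. Counting features with at least 50 reads on either side and setting counts under 3 to 3, 5 of 7 members were past 2-fold, 1 higher and 4 lower, beside 64.0% of 203 features in either direction, 24.6% higher and 39.4% lower. Apart from miR-30c-5p, the members entered this count only through their WT sperm reads, so they could hardly have come out higher. The floor of 3 reads was 0.0542% of listed reads in the oocyte. It kept miR-30a-3p (mean 0.0610% in WT sperm) and miR-30e-3p (0.0446%) from being 2-fold lower. Filter and floor thus largely set this count, which is no evidence about the members. The germ cell and epithelial markers that were abundant in sperm had 4 reads or fewer per list in each oocyte and 2PN library.

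Among the 2PN embryos the share of miR-30c-5p was higher with cKO sperm than with WT sperm, by less than 2-fold, but in the authors' RPM the direction for Dicer cKO was the opposite. The embryos from WT sperm had 0.81 times the oocyte's share (95% exact interval 0.74 to 0.89). With Dicer cKO sperm the share was 1.73 times that of the embryos from WT sperm (1.57 to 1.90), and with Drosha cKO sperm 1.33 times (1.22 to 1.44). In RPM the levels were 749 with Dicer cKO sperm and 2164 with Drosha cKO sperm, against 827 with WT sperm and 1335 in the oocyte, which makes 0.91 and 2.62 times the embryos from WT sperm. miR-30c-5p was the only member with 50 reads in any of these 3 comparisons, and in shares it was not past 2-fold in any of them. Among all features the shares past 2-fold were 14.3% of 14 for the embryos from WT sperm against the oocyte, 50% of 8 for Dicer cKO and 38.5% of 13 for Drosha cKO. With so few features, a share of listed reads also moves with the others. The early embryo miRNAs of the miR-290 cluster held 0.339% in the embryos from Dicer cKO sperm and 1.42% in those from Drosha cKO sperm, against 4.04% in those from WT sperm and 2.93% in the oocyte. Their part in the miR-30c-5p ratio was not tested.

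Across libraries the members were not all alike. The 11 libraries fall into 2 separate sets, sperm and the rest, so likeness over all 11 mainly describes that division. By Pearson correlation of log2(CPM + 100) over 11 libraries, where CPM is the count scaled to library total, the miRNAs most like the summed family among 229 candidates were miR-374c-5p (0.95), miR-344d-3p (0.95), miR-6938-5p (0.94), miR-195a-5p (0.94) and miR-146b-5p (0.93). miR-195a-5p was the only abundant one, at 4.71% to 11.1% of listed reads in oocyte and 2PN libraries and 0.0423% to 0.129% in sperm. The first 3 named had 3 to 22 reads in each oocyte and 2PN library and 0 to 2 in each sperm library. Over the 11 libraries every other member correlated negatively with miR-30c-5p, from −0.95 for miR-30a-5p to −0.51 for miR-30e-3p. Likeness to the sum is therefore mainly likeness to miR-30c-5p. Within the 7 sperm libraries miR-30c-5p went most closely with miR-30b-5p (0.92), miR-30e-5p (0.88) and miR-30e-3p (0.87), while miR-30a-5p reached 0.38 at most, with miR-30d-5p. miR-30d-5p reached 0.75 with miR-30e-5p but 0.17 with miR-30b-5p. The values for miR-30a-3p were negative with every other member, the highest being −0.13 with miR-30a-5p. These values share libraries and depth and are descriptions only.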

How the data were processed

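Per the labels' protocols, total RNA was isolated with a mirVana kit and made into small RNA libraries. The authors deposited raw read counts per mature miRNA and endo-siRNA, and an RPM table that scales each library by 1 divisor, whose meaning is not stated. Per the submitters' processing notes, Bowtie and the build mm10 were used; the Bowtie version, the counting rule and the miRNA release are not stated in the labels. Sequences and coordinates came from RefSeq tables on GRCm38.p6, and a genome of another build was not used here.

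The counts of all 7 sperm libraries were fitted in edgeR 4.0.16 (R 4.3.3) with TMM factors, filterByExpr, the two-sided quasi-likelihood test and Benjamini-Hochberg adjustment at 0.05 over 335 features. Alternatives used other scalings, filters, DESeq2 1.42.0, limma 3.58.1 on log2(RPM + 1) and log2(RPM + 10), fewer libraries and a replicate block. The code was tested on simulated data. The coefficient of variation between replicates was 0.459. Replicates differed beyond counting error (chi-square per degree of freedom 5.74 to 42.0). Separate animals behind the libraries are not stated, so p-values reflect only the spread between libraries, which may be technical. Shares and ratios use exact (Clopper-Pearson) 95% intervals, which cover counting error only, as reads carry no molecular identifiers. A count of 0 allows up to 3 reads. Single-library groups got no test; a feature needed 50 reads on 1 side. Python 3.11.15 and scipy 1.17.1 gave exact permutation tests.

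The members, marker lists and comparisons were chosen with earlier results of these data known. All 7 members and 6 related strands were named whatever they showed, with the 5 miRNAs most like the family (mean of at least 200 CPM). The ratios of neighbouring strands, and the RPM values set beside the oocyte and 2PN shares, were chosen after their values were seen.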

Additional observations from a re-analysis of the deposited data

Results flagged for a closer look

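miR-30c-5p moved in opposite directions in sperm and in 2PN embryos. For Dicer cKO its log2 ratio to WT, in shares of listed reads, was 0.79 in 2PN embryos and −0.53 in sperm. For Drosha cKO it was 0.41 in 2PN embryos and −1.53 in sperm. Every cKO sperm library was below both WT sperm libraries, while each cKO 2PN library was above the WT 2PN library. In the authors' RPM this did not hold for Dicer cKO: the 2PN library stood at 749, against 827 for WT, and the sperm libraries at 407 and 856, against 270.3 and 1853 in WT sperm. For Drosha cKO both directions held in RPM, at 2164 against 827 in 2PN embryos and at 110.1 to 155 against 270.3 and 1853 in sperm. The 2PN groups have 1 library each, so the difference between the sperm and the embryo ratios was not tested. No other member had enough reads in 2PN embryos for this comparison.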

How the results depend on the processing

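Each member's log2 change was recomputed under 19 alternatives per sperm comparison. The calls for Dicer cKO depended on scaling and filter, and those for Drosha cKO did so less. In Dicer cKO against WT sperm 3 members were called; 1 was with library totals alone, and 0 with the authors' divisor, with no filter, with at least 10 CPM in 2 libraries, and with limma at either pseudocount, while leaving out a library gave 0 to 3. In Drosha cKO against WT sperm 5 members were called, and leaving out a library gave 5 each time. The count was 4 with library totals alone, with the authors' divisor and with no filter. limma on log2(RPM + 1) called 3 and on log2(RPM + 10) 0. In Dicer cKO against Drosha cKO sperm 0 were called, 1 by DESeq2, 2 with only the 2 groups fitted, and 0 to 5 when a library was left out. The cause was not tested.

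Library totals alone moved the median of all features to 0.62 for Dicer cKO and 1.04 for Drosha cKO, and the authors' divisor moved the Dicer cKO median to 0.88. For Dicer cKO 52.6% of calls were higher with totals and 34.2% with TMM; for Drosha cKO 60.1% were higher with totals, 18.5% with the divisor and 40% with TMM. Relative to the median of all features, the members' median was −0.67, −0.58 and −0.92 for Dicer cKO with TMM, totals and divisor, and −2.23, −2.28 and −2.37 for Drosha cKO. For Dicer cKO it was −0.07 with at least 10 CPM in 2 libraries, −0.08 with limma on log2(RPM + 10) and 1.18 with no filter. The Drosha cKO values in these settings were −2.49, −1.57 and −1.56.

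Signs turned only for members that were not called. Against WT, Dicer cKO values turned to 0.14 for miR-30a-3p, 0.093 for miR-30d-5p and 0.037 for miR-30e-5p with totals; to 0.30 for miR-30d-5p and 0.091 for miR-30e-5p with the divisor; to 0.13 for miR-30d-5p with no filter; and to 0.10, 0.18 and 0.023 for miR-30a-3p, miR-30d-5p and miR-30e-5p at 10 CPM. With limma they were 0.38, 0.42 and 0.29 at a pseudocount of 1 and 0.22, 0.42 and 0.24 at 10, in the same order. Drosha cKO values with totals were 0.50 for miR-30a-5p and 0.51 for miR-30a-3p. miR-30a-3p in Dicer cKO against Drosha cKO turned to 0.83 with the divisor, 0.81 with no filter, 0.76 at 10 CPM, 0.78 and 0.60 with limma, 0.14 without Drosha cKO replicates 2 and 3, 0.12 with the replicate block, and ranged from −0.27 to 0.39 when a library was left out.

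The family's log2 ratio for Dicer cKO against WT was −0.31 in the authors' RPM and −0.91 with TMM. For Drosha cKO against WT it was −2.23 in RPM, −1.93 with TMM, −0.81 without miR-30c-5p and −1.01 to −0.82 when a library was left out. For Dicer cKO against Drosha cKO it was 1.93 in RPM, 1.02 with TMM and 0.70 to 0.81 when a library was left out. Without miR-30c-5p the family's share was 0.169% and 0.190% in 2PN embryos from Dicer and Drosha cKO sperm, 0.278% in those from WT sperm and 0.217% in the oocyte. In alternatives added after seeing the data, the authors' RPM gave miR-30c-5p log2 ratios of 0.33 for oocyte against WT sperm (3.89 to 4.44 in shares when a library was left out), −0.14 and 1.39 for 2PN embryos from Dicer and Drosha cKO sperm against those from WT sperm, and −0.69 for the embryos from WT sperm against the oocyte, in place of 4.14, 0.79, 0.41 and −0.30. The log2 difference of the miR-30a-5p to miR-30c-5p ratio was 1.23 to 2.25 for Dicer cKO and 1.50 to 2.52 for Drosha cKO when a library was left out. That of miR-30b-5p to miR-30d-5p between Dicer cKO and Drosha cKO was −0.33 to 0.50.

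Libraries share replicate numbers across groups, but no label says that a number marks a shared animal or batch. Deviations of same-numbered libraries correlated at 0.18 to 0.29, positive in all 3 pairs of groups, and with 2 shared numbers per contrast whether the numbers pair the libraries was not settled. With a replicate block 3, 5 and 0 members were called in the 3 comparisons, and 175, 184 and 8 of all features in place of 158, 185 and 0. Depth limits miR-30e-3p in sperm and the 6 members other than miR-30c-5p in oocytes and 2PN embryos.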
